A study of Mus musculus with 81 samples.

Results

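Kinesins are motor proteins that use ATP to walk along microtubules or to take microtubules apart, and the genes that encode them were followed here in mouse thymic lymphomas and normal thymus. The members were all symbols in the count table that match Kif followed by a number (with an optional letter and digit) or Kifc followed by a digit and that reached at least 1 CPM (the count as a rate per library total) in at least 5 of the 40 mice. Of 40 matching symbols, 38 met this rule, among 51826 genes in the table and 17183 that reach the same level in as many mice. The members were sorted into 12 mitotic, 15 transport and 11 other kinesins by the textbook role of each. Kif2b, a mitotic kinesin with a highest level of 0 CPM, and Kif27, a cilium-related kinesin with a highest level of 0.674 CPM, did not meet the rule, and Kif6 met it with 5 mice.

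RNA was sequenced in 81 libraries from 40 mice of the strain C57BL/6 x 129S4Sv/Jae, to study how aneuploidy (an abnormal chromosome number) affects the development of tumours. All groups, normal thymus too, had 3 shared alleles: Plk4 under doxycycline control (Col1a1 locus), rtTA, its transactivator (Rosa), and centrin-GFP, a centriole reporter (Rosa). Centriole copying begins with the kinase Plk4, and too much of it leaves cells with surplus centrosomes. The groups were normal thymuses of untreated p53+/+ mice (8 mice, 8 libraries), lymphomas of untreated p53-/- mice (10 mice, 23 libraries), lymphomas of p53-/- mice given doxycycline for 2 weeks from 30 days of age (9 mice, 18 libraries) and lymphomas of p53+/- mice given the same treatment (12 mice, 31 libraries). A single normal thymus was from an untreated p53+/- mouse and entered no main test. The ages at which tissue was taken are not in the labels, and each tumour comes from bulk tissue, in which fewer cells of a type and less RNA per cell cannot be told apart. Biopsies of 1 tumour were summed, so that n counts mice. In the 3 lymphoma groups, in the order above, 9 of 10, 4 of 9 and 3 of 12 mice were labelled male, and 4 of the 8 normal thymuses were.

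Mitotic kinesins build the spindle, move chromosomes along it and cut the cell in 2 at its end, and most are made only by dividing cells in the late part of the cell cycle. Transport kinesins carry vesicles, mitochondria and other cargo along microtubules in dividing and resting cells alike, and several are best known from neurons. The thymus holds T cell precursors that divide in bursts and then rest, and lymphomas of this organ are tumours of such precursors. Genes used late in the cell cycle often share a promoter element called CHR (cell cycle genes homology region), through which the DREAM and MuvB complexes act, next to CCAAT boxes bound by NF-Y.

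The promoters of 4 mitotic kinesins that hold both elements are printed here because the mitotic members moved together in the comparison with normal thymus; Kif18a is shown as the mitotic member with no CHR match, and the first of 2 windows of Kif1b as the transport kinesin that was lower in all 3 lymphoma groups. Each window runs from 250 bases before to 50 bases after the gene start in RefSeq, build GRCm38.p6, written 5′ to 3′ on the gene's strand. Capitals mark CHR letters (TTTGAA or TTCGAA, on either strand) and CCAAT letters (on either strand).
Kif11, chr19:37376132-37376431, plus strand: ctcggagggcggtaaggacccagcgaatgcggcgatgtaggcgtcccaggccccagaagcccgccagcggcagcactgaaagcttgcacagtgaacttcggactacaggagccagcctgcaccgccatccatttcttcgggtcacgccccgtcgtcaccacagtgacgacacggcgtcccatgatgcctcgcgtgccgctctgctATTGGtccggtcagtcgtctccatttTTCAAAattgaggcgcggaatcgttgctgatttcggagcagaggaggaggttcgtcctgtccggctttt
Kif18b, chr11:102925075-102925374, minus strand: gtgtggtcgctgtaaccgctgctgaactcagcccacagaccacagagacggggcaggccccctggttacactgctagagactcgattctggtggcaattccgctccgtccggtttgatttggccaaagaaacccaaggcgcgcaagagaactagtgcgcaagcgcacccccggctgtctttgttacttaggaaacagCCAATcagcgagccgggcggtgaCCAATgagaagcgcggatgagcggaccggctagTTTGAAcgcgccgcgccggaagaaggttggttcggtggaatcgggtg
Kif23, chr9:61946750-61947049, minus strand: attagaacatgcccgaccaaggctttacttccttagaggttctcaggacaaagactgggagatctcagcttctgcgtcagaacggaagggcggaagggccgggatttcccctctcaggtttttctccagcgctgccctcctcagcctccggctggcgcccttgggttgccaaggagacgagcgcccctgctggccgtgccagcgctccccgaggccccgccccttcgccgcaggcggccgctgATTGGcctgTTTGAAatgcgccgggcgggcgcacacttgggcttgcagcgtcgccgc
Kifc1, chr17:33890584-33890883, minus strand: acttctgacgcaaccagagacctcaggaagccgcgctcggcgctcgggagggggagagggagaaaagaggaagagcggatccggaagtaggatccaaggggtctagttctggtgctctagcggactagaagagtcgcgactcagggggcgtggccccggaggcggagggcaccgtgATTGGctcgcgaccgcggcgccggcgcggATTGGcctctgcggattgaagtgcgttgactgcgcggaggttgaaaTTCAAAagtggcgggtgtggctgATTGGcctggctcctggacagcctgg
Kif18a, chr2:109280488-109280787, plus strand: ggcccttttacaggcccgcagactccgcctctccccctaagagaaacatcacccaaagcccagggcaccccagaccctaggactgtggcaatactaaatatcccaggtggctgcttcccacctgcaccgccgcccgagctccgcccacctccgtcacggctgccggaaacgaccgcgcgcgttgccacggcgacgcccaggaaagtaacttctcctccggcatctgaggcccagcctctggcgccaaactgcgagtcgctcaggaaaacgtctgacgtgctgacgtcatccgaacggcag
Kif1b, chr4:149307649-149307948, minus strand: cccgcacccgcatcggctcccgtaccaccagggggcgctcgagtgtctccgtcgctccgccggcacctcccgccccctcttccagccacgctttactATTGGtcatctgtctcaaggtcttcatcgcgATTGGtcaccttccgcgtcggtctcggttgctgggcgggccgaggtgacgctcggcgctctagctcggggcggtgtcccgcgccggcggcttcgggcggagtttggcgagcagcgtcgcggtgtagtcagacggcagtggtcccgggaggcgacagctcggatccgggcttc

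A window was available for 30 of the 38 members. Counted by gene, CHR letters lay in 10 of 11 mitotic kinesins with a window (90.9%), in 1 of 10 transport kinesins, in 2 of 9 other kinesins and in 21.7% of the 27025 genes with a window. The matching windows of Kif2c, Kif4, Kif14 and Kif1a (chr1:93082431-93082730) lie wholly inside the GENCODE span of the gene. A further window of Kif1a, at the outer start, held no CHR letters. In the last 100 bases of the window the share was 72.7% of mitotic kinesins and 6.12% of all genes. CCAAT letters lay in 63.6% of mitotic windows and 41.1% of all, and both elements together lay in 63.6% and 8.61%. Of 13 other G2 and M genes with a window, 76.9% held CHR letters, 92.3% CCAAT letters and 76.9% both. In the 3 transport or other windows with CHR letters (Kif1a, Kif24 and Kif26b) the gene was called higher in every lymphoma group only for Kif24. A match is a description of letters and not of binding, and a gene with several annotated starts was counted once if any of its windows held the letters.

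Before the members are described, 2 tissues that went against the rest are named. The tumour of mouse 881, labelled an untreated p53-/- thymic lymphoma, had the lowest summed level of the 7 T lineage markers (155 CPM, with 2170 to 5150 CPM over the mice of both treated groups) and the highest summed level of the 6 B lineage markers of all lymphomas (3280 CPM). Normal thymus 387 had a mean T lineage marker level of 6.40 on the log2 CPM scale, where the other 7 normal thymuses lay at 8.48 or more, and a B lineage mean of 7.84, where they lay at 4.13 or less. Its thymic epithelium markers, 101 CPM in sum, were also the lowest of the normal thymuses, and its fat markers, 11000 CPM, the highest. Library totals ran from 1.03 M to 26.87 M counts (M, mega) over lymphoma biopsies and from 5.01 M to 19.72 M over the 8 normal thymuses. The sex labels of 3 lymphoma mice went against sex-linked expression.

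Mitotic kinesins were higher in lymphoma than in normal thymus. Of the 12 members, 10 were called higher in untreated p53-/- lymphomas, 12 in treated p53-/- lymphomas and 11 in treated p53+/- lymphomas, and 0 were called lower in any of them (edgeR quasi-likelihood test, Benjamini-Hochberg adjusted p under 0.05 over 17843 genes). Among all genes tested, 23.2%, 25.4% and 25.6% were called higher in the same 3 comparisons. Without normal thymus 387 the mitotic counts were 11, 12 and 11, and without mouse 881 they were 10, 12 and 11. The median log2 fold change of the mitotic members was 1.01, 1.21 and 1.2, beside 0.08, -0.04 and -0.00 for all genes. The 3 comparisons share the 8 normal thymuses, so their counts are not independent of each other. These normal thymuses were spread widely: their mean mitotic level ran from 3.23 to 6.20 log2 CPM with a median of 5.56, and that of the 31 lymphomas from 5.96 to 7.03 with a median of 6.61. In 27 of the 31 lymphomas the mean was above every normal thymus, and in 19 of 31 with no scaling factors (8 and 4 of 10 in the untreated group). The low end of the normal thymuses was made of mouse 978 (3.23), mouse 387 (3.69) and mouse 961 (4.39), of which mice 978 and 961 had T lineage means of 8.63 and 8.79, inside the range of the other normal thymuses.

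**Figure D1:**
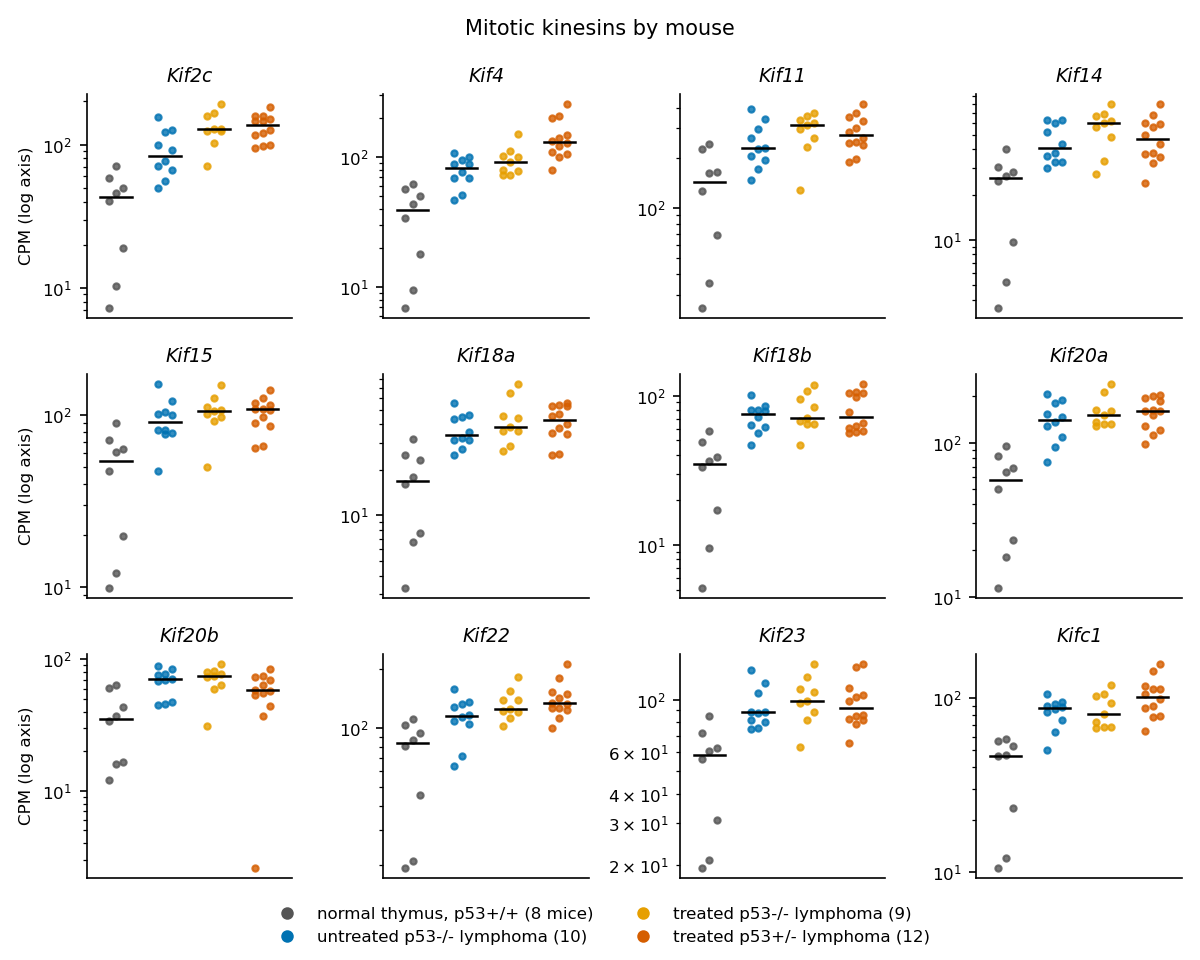
CPM (log axis) of the 12 mitotic kinesins in each mouse, with 1 point per mouse, a line at the group median and colours for the 4 groups. Medians are higher in every lymphoma group than in normal thymus, 3 normal thymuses lie far below the other 5 for most genes, and 1 treated p53+/- tumour lies at 2.59 CPM for Kif20b.

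Kif11, Kif15 and Kifc1 hold the spindle poles apart or together. Kif11 (Eg5) is a motor with 4 heads that slides antiparallel microtubules and drives pole separation. Its level was 25.0 to 243 CPM in normal thymus (median 144), 146 to 393 in untreated p53-/- lymphomas (median 228), 128 to 373 in treated p53-/- lymphomas (median 316) and 188 to 419 in treated p53+/- lymphomas (median 274). The groups overlapped, with 20 of 31 lymphomas above every normal thymus. For this and the other counts of lymphomas above or below every normal thymus, the share over all genes was not computed. The log2 fold change against normal thymus was 0.82 ± 0.29 (SE, edgeR adjusted p = 0.0207), 1.07 ± 0.29 (adjusted p = 0.00269) and 1.03 ± 0.29 (adjusted p = 0.00319) in that order of lymphoma groups, which is used throughout. Kif15, which backs up Kif11 on spindle microtubules, had medians of 53.8, 91.0, 105 and 108 CPM in normal thymus and the 3 lymphoma groups, and a range of 9.88 to 90.1 in normal thymus against 47.1 to 151, 49.6 to 149 and 64.4 to 140. It rose by 0.85 ± 0.29, 1.12 ± 0.29 and 1.13 ± 0.28 on the log2 scale (edgeR adjusted p = 0.0167, 0.00145 and 0.00121). In the untreated group the calls of Kif11 and Kif15 were lost in a fit of normal thymus and that group alone (log2 fold change 0.82 and 0.80, edgeR adjusted p = 0.103 and 0.114) and with single-biopsy tumours only (0.75 and 0.78, adjusted p = 0.106 and 0.104). That of Kif11 was also lost with no scaling factors (0.71, adjusted p = 0.053).

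Kifc1 (HSET) walks to the minus end of microtubules and is known to cluster extra centrosomes into 2 poles. Its level was 10.6 to 58 CPM in normal thymus (median 46.6), 50.2 to 106 in untreated p53-/- lymphomas (median 87.5), 67.5 to 119 in treated p53-/- lymphomas (median 80.5) and 65 to 156 in treated p53+/- lymphomas (median 102). All lymphomas but 1 of the untreated group were above every normal thymus, the highest such count of the mitotic members (30 of 31). The log2 fold change was 1.02 ± 0.25, 1.1 ± 0.25 and 1.36 ± 0.25 (edgeR adjusted p = 0.00118, 0.000376 and 2.14e-05). The value of Kifc1 is uncertain in its share of reads, because the near-identical gene Kifc5b held 26255 counts over all mice beside 98526 for Kifc1 and the estimated counts of Kifc1 were not whole numbers in any library. Among the lymphomas the treated and untreated p53-/- groups had a Kifc1 difference of -0.00 ± 0.18 (edgeR adjusted p = 0.997).

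Kif2c, Kif18a, Kif18b, Kif4 and Kif22 act on chromosomes and on microtubule ends. Kif2c (MCAK) depolymerises microtubules that are wrongly attached to kinetochores. It lay at 7.25 to 70.6 CPM in normal thymus (median 43.4), 49.9 to 156 in untreated p53-/- lymphomas (median 83.8), 71 to 191 in treated p53-/- lymphomas (median 128) and 94.3 to 182 in treated p53+/- lymphomas (median 136). Every lymphoma of both treated groups and 7 of 10 untreated lymphomas were above every normal thymus. The log2 fold change was 1.18 ± 0.29, 1.74 ± 0.30 and 1.75 ± 0.29 (edgeR adjusted p = 0.00134, 1.05e-05 and 7.26e-06).

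Kif18a damps the movements of chromosomes at the spindle equator, and Kif18b shortens the astral microtubules. Kif18a had medians of 16.9, 34, 38.6 and 42.8 CPM in normal thymus and the 3 lymphoma groups, with 3.31 to 32.2 in normal thymus and 25.2 to 55, 26.7 to 73.6 and 25.1 to 55.5 in the lymphomas. It rose by 1.1 ± 0.29, 1.33 ± 0.29 and 1.25 ± 0.28 (edgeR adjusted p = 0.00217, 0.000218 and 0.000369). Kif18b had medians of 34.8, 74.7, 70.7 and 71.8 CPM, with 5.13 to 57.6 in normal thymus and 46.9 to 101, 46.8 to 117 and 56.3 to 119 in the lymphomas. It rose by 1.14 ± 0.29, 1.31 ± 0.29 and 1.33 ± 0.28 (edgeR adjusted p = 0.00179, 0.000291 and 0.000194). All 31 lymphomas were above the normal median for both genes, and 23 and 26 of them were above every normal thymus.

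Kif4 and Kif22 are chromokinesins, motors that bind chromosome arms. Kif4, on chromosome X, lay at 6.91 to 62.1 CPM in normal thymus (median 38.8), 46.6 to 107 in untreated p53-/- lymphomas (median 82.7), 72.5 to 151 in treated p53-/- lymphomas (median 91.9) and 78.8 to 254 in treated p53+/- lymphomas (median 130). It had the largest log2 fold change of the mitotic members in the p53+/- lymphomas, with 1.09 ± 0.29, 1.36 ± 0.30 and 1.93 ± 0.30 (edgeR adjusted p = 0.00313, 0.000308 and 2.24e-06). Kif22 (Kid), which pushes chromosome arms away from the poles, had medians of 83.8, 115, 125 and 134 CPM, with 19.3 to 111 in normal thymus and 63.6 to 157, 102 to 181 and 100 to 211 in the lymphomas. Its log2 fold change was 0.57 ± 0.24, 0.85 ± 0.24 and 0.95 ± 0.24, called in both treated groups (edgeR adjusted p = 0.0035 and 0.0011) and not in the untreated group (0.0532); treated minus untreated p53-/- lymphoma was 0.21 ± 0.16 (adjusted p = 0.638).

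Kif23, Kif20a, Kif14 and Kif20b work at the central spindle and the midbody. Kif20a (MKLP2), which brings the chromosomal passenger complex to the central spindle, lay at 11.4 to 95.2 CPM in normal thymus (median 57.2), 74.5 to 207 in untreated p53-/- lymphomas (median 141), 129 to 240 in treated p53-/- lymphomas (median 151) and 97.8 to 204 in treated p53+/- lymphomas (median 162). It rose by 1.32 ± 0.27, 1.60 ± 0.27 and 1.58 ± 0.27 (edgeR adjusted p = 0.000199, 8.99e-06 and 8.53e-06), and 29 of 31 lymphomas were above every normal thymus. Kif23 (MKLP1), the motor of the centralspindlin complex, had medians of 58.5, 88.2, 98.7 and 92.4 CPM, with 19.4 to 85.2 in normal thymus and 75 to 133, 63.1 to 141 and 65.3 to 141 in the lymphomas. It rose by 0.75 ± 0.22, 0.93 ± 0.22 and 0.89 ± 0.21 (edgeR adjusted p = 0.00531, 0.000497 and 0.000627), the smallest rise among the members called in all 3 comparisons within the mitotic class.

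Kif14, which holds citron kinase at the midbody, had medians of 25.6, 40.5, 59.5 and 46.6 CPM, with 3.52 to 40 in normal thymus and 29.9 to 63, 27.4 to 79.7 and 23.9 to 79.5 in the lymphomas. It rose by 1.01 ± 0.32, 1.34 ± 0.33 and 1.14 ± 0.31 (edgeR adjusted p = 0.0111, 0.000812 and 0.00277), and its groups overlapped more than those of Kif20a, with 19 of 31 lymphomas above every normal thymus. Its call in the untreated group was lost in a fit of that group and normal thymus alone (log2 fold change 1.02, edgeR adjusted p = 0.0561). Kif20b (MPP1), a late cytokinesis motor at chr19:34922361-34975745, had medians of 35.4, 70.5, 74.7 and 58 CPM, with 12 to 63.8 in normal thymus and 44.8 to 88.5, 31.1 to 91.7 and 2.59 to 84.8 in the lymphomas. Its log2 fold change was 0.78 ± 0.34, 0.97 ± 0.34 and 0.64 ± 0.33, with a call in the treated p53-/- lymphomas (edgeR adjusted p = 0.0182; 1.13 and adjusted p = 0.0829 with limma voom on single biopsies) and none in the others (0.0652 and 0.0996). The low value of 2.59 CPM came from treated p53+/- mouse 894, the single lymphoma below every normal thymus for any mitotic kinesin.

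Other genes of the cell cycle also rose. Of 15 spindle partners of these motors, 10, 14 and 14 were called higher (median log2 fold change 0.94, 1.26 and 1.19), and 0, 1 and 1 were called lower. That gene, Numa1, a spindle pole protein named after its values were seen, was at -0.32, -0.65 and -0.51. Racgap1, the partner of Kif23 in centralspindlin, rose by 1.08 ± 0.24, 1.46 ± 0.24 and 1.57 ± 0.24, and Tpx2, which guides spindle assembly, by 0.77 ± 0.27, 1.11 ± 0.28 and 1.11 ± 0.27 (all called). Of 15 other genes of the G2 and M phases, 13, 14 and 14 were called higher (median 1.04, 1.48 and 1.25), and Top2a rose by 1.02 ± 0.28, 1.26 ± 0.28 and 1.24 ± 0.28. Mki67, the commonly used proliferation marker, was not called, at 0.40 ± 0.26, 0.30 ± 0.27 and 0.53 ± 0.26. Of 15 DNA replication genes 14 were called higher in each comparison (median 1.41, 1.65 and 1.63), with Mcm7 at 1.71 ± 0.25, 1.76 ± 0.25 and 1.84 ± 0.25 and Pcna at 1.05 ± 0.23, 1.27 ± 0.23 and 1.34 ± 0.23. With the mean level of the 15 G2 and M genes as a covariate, calls over all 17843 genes went from 7269 to 3122, from 9292 to 3142 and from 9080 to 3124 in the 3 comparisons, and 0 mitotic kinesins were called in each. Of the 59 calls of members, 23 changed sign; in that fit Kif20a was at 0.27, 0.27 and 0.28 and Kif11 at -0.36, -0.44 and -0.43. The groups did not overlap on this covariate, at 3.88 to 6.96 log2 CPM in normal thymus and 7.0 to 7.99 in the 31 lymphomas, so this fit cannot tell the covariate and the tumour apart. The part of the cell cycle in the rise of mitotic kinesins was not tested.

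**Figure D2:**
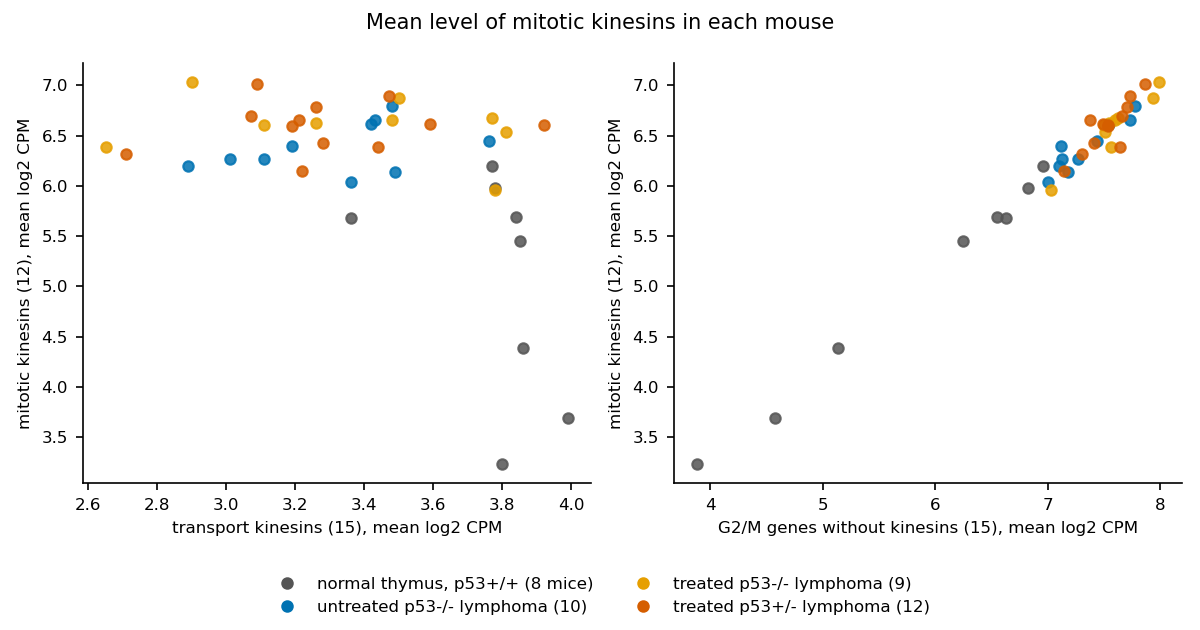
Mean log2 CPM of the 12 mitotic kinesins in each mouse against the mean of the 15 transport kinesins (left) and of 15 other G2 and M genes (right), with 1 point per mouse and colours for the 4 groups. On the left the lymphomas lie higher and to the left of most normal thymuses; on the right all mice lie near 1 line, with 27 of 31 lymphomas above the highest normal thymus (6.20).

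Few transport kinesins passed the test, and the unweighted mean of their log2 levels lay lower in lymphomas than in normal thymus. Of 15 members, 0, 1 and 1 were called higher and 1, 3 and 4 lower in the 3 comparisons, beside 17.5%, 26.6% and 25.3% of all genes called lower. Without normal thymus 387 the counts were 1, 1 and 1 higher and 0, 3 and 4 lower, and without mouse 881 they were as in the full set. The median log2 fold change of the class was -0.28, -0.20 and -0.40, beside 0.08, -0.04 and -0.00 for all genes. It includes Kif17, which reached 1 CPM in 11 mice, 7 of them normal, and is a member only through normal thymus. Its lower level in lymphomas is part of how it was chosen and is no support for a lower class. The mean level of the class was 3.36 to 3.99 log2 CPM in normal thymus (median 3.82) and 2.65 to 3.92 in the 31 lymphomas (median 3.28), of which 17 lay below every normal thymus and 0 above (25 and 0 with no scaling factors). In this mean, members with low counts weigh as much as the others. Kif17 was at 0.08 log2 CPM in normal thymus and at -1.8, -1.01 and -1.44 in the lymphoma groups. Kif5b, with the highest counts of the class, was at 6.84 and at 7.02, 6.88 and 6.99. Mitotic minus transport mean level was -0.56 to 2.43 in normal thymus and 2.18 to 4.13 in the lymphomas, above every normal thymus in 30 of 31. Kif17 is part of the transport mean here, so a part of this difference was set by the member rule. Normal thymus 624, the shallowest normal library, had the lowest transport mean of the normal thymuses (3.36), and 387 the highest (3.99).

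Kif1b, which carries synaptic vesicle precursors and mitochondria in neurons and lies at chr4:149176319-149307693, was the only transport kinesin called in the same direction in all 3 comparisons. Its level was 47 to 170 CPM in normal thymus (median 60.5), 13.6 to 65.8 in untreated p53-/- lymphomas (median 38.1), 20.1 to 54.9 in treated p53-/- lymphomas (median 23.9) and 20.6 to 64.5 in treated p53+/- lymphomas (median 30.9). Of the 31 lymphomas, 23 were below every normal thymus and 0 were above. The log2 fold change was -1.01 ± 0.32, -1.33 ± 0.31 and -1.13 ± 0.29 (edgeR adjusted p = 0.0104, 0.000612 and 0.00132). The highest normal value, 170 CPM, came from mouse 387, and without it the fold changes were -0.68, -0.90 and -0.71, with no call in the untreated group (edgeR adjusted p = 0.0677). That call was also lost in a fit of the 2 groups alone (-0.83, edgeR adjusted p = 0.0811) and with single-biopsy tumours only (-0.78, adjusted p = 0.0693).

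The other transport kinesins that passed the test are named after their values were seen. Kif1c, a Golgi and podosome motor, was 63.9 to 242 CPM in normal thymus (median 78.2) and had lymphoma medians of 61.7, 62.3 and 56.3. It fell by 0.88 ± 0.21 and 0.95 ± 0.19 in the treated p53-/- and p53+/- lymphomas (edgeR adjusted p = 0.000532 and 9.92e-05), and was at -0.49 ± 0.21 in the untreated group (0.062). Mouse 387 again held the highest value, and without it the fold changes of Kif1c in the treated groups were -0.43 and -0.46, still called. Kifc2, a minus-end motor of neurons, had medians of 15.2, 5.48, 6.48 and 8.04 CPM. It fell by 1.21 ± 0.44 and 1.09 ± 0.41 in the treated groups (edgeR adjusted p = 0.0193 and 0.0239; in the p53+/- group -0.88 and adjusted p = 0.108 with single-biopsy tumours only), with 22 of 31 lymphomas below every normal thymus and 1 above.

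Kif5c, a kinesin-1 heavy chain best known from neurons, was called lower in the p53+/- lymphomas (-1.86 ± 0.61, edgeR adjusted p = 0.0109; -1.65 and adjusted p = 0.0793 with single-biopsy tumours only), with 0.552 to 4.63 CPM there and 2.75 to 10.8 in normal thymus. In both p53-/- groups its range was wider, 0.497 to 16.8 and 0.329 to 21.6 CPM, and it was not called. Kif3a, a subunit of the kinesin-2 motor that builds cilia, went the other way: it had medians of 13.9, 17.1, 24.8 and 24.2 CPM and rose in both treated groups (0.81 ± 0.25 and 0.73 ± 0.24, edgeR adjusted p = 0.0078 and 0.0122) but was at 0.17 ± 0.26 in the untreated group (0.614). Treated minus untreated p53-/- lymphoma was 0.64 ± 0.27 for Kif3a (adjusted p = 0.367), so a difference in response was not shown. Its lowest value, 3.65 CPM, was that of mouse 881. Its kinesin-2 partners Kif3b (medians 49.1, 47.3, 41.9 and 38.8 CPM) and Kif3c (28.9, 22.5, 17.8 and 17.5) were not called in any comparison.

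Per kilobase of merged exon, the transport kinesin with the highest median over the 31 lymphomas was Kif5b, the widely made kinesin-1 heavy chain, at 16 CPM per kilobase, ahead of Kif1c at 8.08, Kif3b at 7.43 and Kif3a at 6.66. Kif5b had medians of 110, 133, 123 and 128 CPM, and its log2 fold change was 0.20 ± 0.20, -0.06 ± 0.20 and 0.08 ± 0.19, none called. The mitotic members Kif11 (35.3) and Kif20a (34.9) stood at the top of all 38 on this scale in the lymphomas. In normal thymus the first was Kif21b, an immune and neuronal kinesin at the plus end of microtubules, with a median of 26.3 CPM per kilobase, followed by Kif11 at 19.2. Kif21b was not called in any comparison, at 320, 349, 282 and 310 CPM (medians) and 0.05 ± 0.25, -0.35 ± 0.25 and -0.14 ± 0.24. The remaining transport kinesins, Kif1a, Kif5a, Kif13a, Kif13b, Kif16b, Kif17 and Kifc3, had no call; their medians in normal thymus ran from 1.06 CPM (Kif17) to 22.1 CPM (Kif16b), and their log2 fold changes from -1.31 (Kif17, untreated) to 1.73 (Kif1a, treated p53-/-). Mouse 490 held 43.3 CPM of Kif1a and the other 8 treated p53-/- mice 0.0993 to 5.84, with a group median of 1.22 CPM beside 1.60 in normal thymus.

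**Figure D3:**
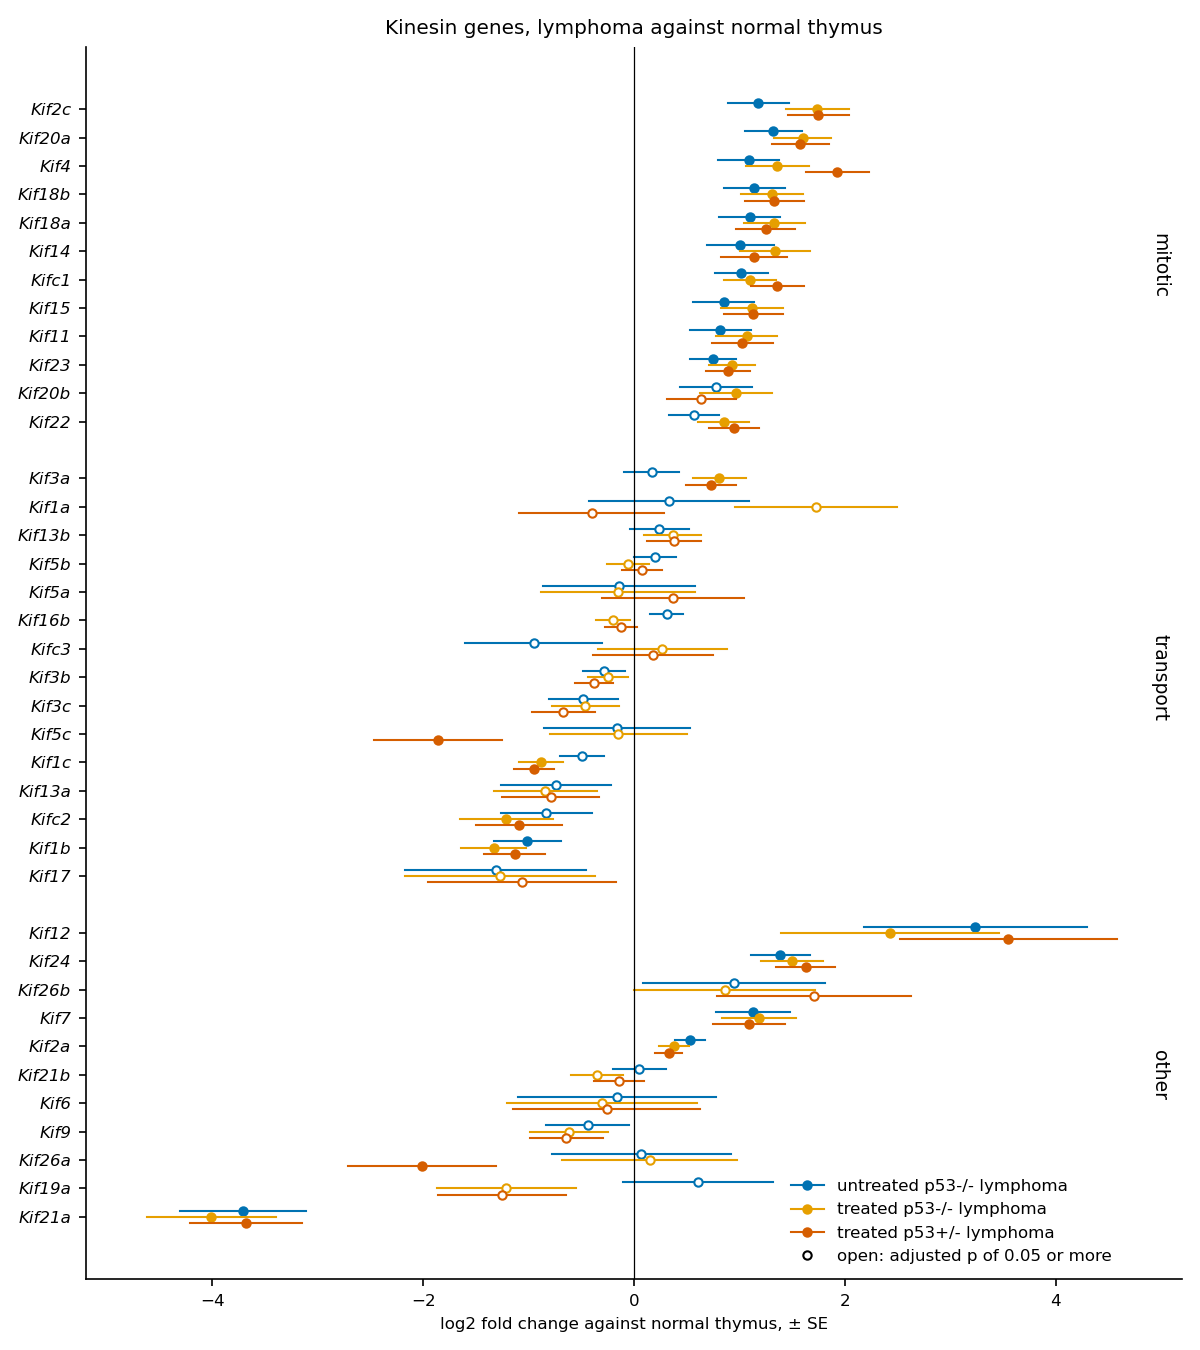
Log2 fold change of all 38 kinesins against normal thymus in the 3 lymphoma groups, with bars of ± SE from the edgeR fit; filled points have an adjusted p under 0.05. The 12 mitotic members lie between 0.57 and 1.93, the transport members lie on either side of 0, and Kif21a lies near -4.

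Of 16 partners that link transport kinesins to cargo, 14 were tested, and of these 0 were called higher and 2, 5 and 6 lower in the 3 comparisons (17.5%, 26.6% and 25.3% of all genes were called lower), with a median log2 fold change of -0.36, -0.40 and -0.40. Arl8a, a lysosomal GTPase, and Klc2, a kinesin-1 light chain, were the 2 called in every comparison, at -0.81, -1.21 and -1.07 and at -0.84, -0.93 and -1.13 (named after their values were seen). Arl8b, the paralog that recruits kinesins to lysosomes, was at 0.13 ± 0.13, 0.07 ± 0.13 and 0.07 ± 0.13, and Trak1, the mitochondrial adaptor, at -0.07 ± 0.22, -0.16 ± 0.21 and -0.30 ± 0.20, none called.

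Of the 11 other kinesins, 4 were called higher in each comparison and 1, 1 and 2 lower, beside 23.2%, 25.4% and 25.6% of all genes higher and 17.5%, 26.6% and 25.3% lower. Among the 4 is Kif12, a member only through the lymphomas, whose calls are no support; the other 3 are Kif2a, Kif7 and Kif24. Kif21a, a kinesin that restrains microtubule growth at the cell cortex (chr15:90933276-91049948), fell most of all members. Its level was 8.26 to 20.3 CPM in normal thymus (median 12.8), 0.127 to 3.63 in untreated p53-/- lymphomas (median 1.51), 0.0993 to 2.15 in treated p53-/- lymphomas (median 0.777) and 0.0716 to 4 in treated p53+/- lymphomas (median 0.576). Every lymphoma was below every normal thymus, and the same was true of the mean of the 6 fat markers. The share of all genes that separate this fully was not computed. The log2 fold change was -3.71 ± 0.60, -4.01 ± 0.61 and -3.68 ± 0.53 (edgeR adjusted p = 7.69e-06, 1.5e-06 and 5.76e-07), while the median over all tested genes of chromosome 15 was 0.29 to 0.42 over the 3 comparisons. Several marker lists of other cell types were lower as well: the 6 fat markers summed to 869 to 11000 CPM in normal thymus and 56.7 to 232 in lymphomas, and the 6 thymic epithelium markers to 101 to 1680 and 1.98 to 344, with Foxn1, Psmb11 and Prss16 at medians under 1 CPM in each lymphoma group. Of the 5 endothelium markers 3, 3 and 4 were called lower, with a median log2 fold change of -1.23, -1.16 and -1.38, and their mean was below every normal thymus in 22 of 31 lymphomas. Of the 6 B lineage markers 0, 6 and 5 were called lower, with a median of 0.39, -4.53 and -2.83, and their mean was below every normal thymus in 26 of 31 lymphomas and above in 1, mouse 881. In the untreated group 8 of 10 lay below every normal thymus, and the summed B lineage level had a median of 17.5 CPM there (107 in normal thymus) with mouse 881 at 3280. Other lists were not lower throughout: 0 of 5 myeloid markers were called in any comparison (median 0.36, 0.09 and -0.05), and of 5 fibroblast markers 1, 0 and 0 were called higher and 1, 2 and 1 lower (median -0.76, -0.67 and 0.49). The part of these cells in the lower levels of Kif21a, Kif1b, Kif1c and the other kinesins that fell was not tested.

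Kif24 keeps centrioles from growing cilia and binds microtubule ends. Its level was 1.95 to 12.8 CPM in normal thymus (median 6.16), 10.3 to 23.2 in untreated p53-/- lymphomas (median 15.9), 7.54 to 26.6 in treated p53-/- lymphomas (median 19.3) and 7.80 to 27.9 in treated p53+/- lymphomas (median 22.9). It rose by 1.39 ± 0.28, 1.5 ± 0.29 and 1.63 ± 0.28 (edgeR adjusted p = 0.00015, 5.19e-05 and 9.34e-06), and 27 of 31 lymphomas were above every normal thymus. With the covariate of G2 and M genes it was at 0.51 ± 0.27, 0.39 ± 0.29 and 0.55 ± 0.29 and not called (edgeR adjusted p = 0.193, 0.379 and 0.186). Its low normal values belonged to the mice with low mitotic kinesins, 978 (1.95 CPM), 961 (2.58) and 387 (3.55).

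Kif7, a regulator of hedgehog signalling at the tip of the cilium, was 4.46 to 8.96 CPM in normal thymus (median 7.43), 1.51 to 27 in untreated p53-/- lymphomas (median 20.1), 11.1 to 31 in treated p53-/- lymphomas (median 15.8) and 5.52 to 31.2 in treated p53+/- lymphomas (median 16.2). It rose by 1.13 ± 0.35, 1.19 ± 0.35 and 1.09 ± 0.34 (edgeR adjusted p = 0.0105, 0.00501 and 0.00796). The Kif7 call in the untreated group was lost in a fit of the 2 groups alone (log2 fold change 1.22, edgeR adjusted p = 0.0536) and with limma voom on single biopsies (0.53, adjusted p = 0.348). With the covariate of G2 and M genes Kif7 was at 0.90 ± 0.49, 0.95 ± 0.50 and 0.84 ± 0.50, not called (0.202, 0.194 and 0.253), and Kif21a at -3.21, -3.35 and -3.06, still called. Of the 31 lymphomas 27 were above every normal thymus and 2 below, which were the untreated p53-/- mice 202 (1.51 CPM) and 881 (4.08). The spread of the normal thymuses was small for Kif7, and the 3 mice with low mitotic kinesins lay at 4.46, 6.21 and 6.95 CPM.

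Kif2a, a microtubule depolymerase at spindle poles and in neurites, rose by 0.53 ± 0.14, 0.38 ± 0.14 and 0.33 ± 0.13 (edgeR adjusted p = 0.00217, 0.018 and 0.0335). It lay at 33.1 to 49.8 CPM in normal thymus (median 40.3), 35.9 to 89.1 in untreated p53-/- lymphomas (median 65.7), 48.9 to 73.4 in treated p53-/- lymphomas (median 55.7) and 34.9 to 74.7 in treated p53+/- lymphomas (median 53.5). The call in the p53+/- lymphomas was lost under 9 of 23 alternatives, among them the covariate of G2 and M genes (log2 fold change 0.10, edgeR adjusted p = 0.76), no scaling factors (log2 fold change 0.21, edgeR adjusted p = 0.294) and leaving out normal mouse 961, 978, 980 or 615 (log2 fold change 0.31 to 0.33). The Kif2a call in the untreated group was lost with the covariate (log2 fold change 0.33 ± 0.18, edgeR adjusted p = 0.203). That in the treated p53-/- lymphomas was lost with the covariate (0.661), no scaling factors (0.104) or single-biopsy tumours only (0.0697). Kif12, a kinesin of epithelial cells, reached 1 CPM in 14 mice and in 0 normal thymuses, so it is a member only through the lymphomas and its rise is part of how it was chosen. Its normal range was 0.00 to 0.69 CPM, its lymphoma ranges were 0.0715 to 15.3, 0.254 to 8.55 and 0.143 to 14.4, and the fitted log2 fold change was 3.24 ± 1.06, 2.43 ± 1.03 and 3.55 ± 1.03 (edgeR adjusted p = 0.0138, 0.0454 and 0.0042). The Kif12 call in treated p53-/- lymphomas was lost under 14 of 23 alternatives, the covariate of G2 and M genes (0.132) and leaving out normal mouse 387, 787, 818, 980, 615 or 624 among them (0.0529 to 0.0795). In untreated lymphomas its call was lost with limma voom on single biopsies (1.8, limma voom adjusted p = 0.176) and with the covariate. Kif26a, which has lost motor activity, was called lower in the p53+/- lymphomas (-2.01 ± 0.70, edgeR adjusted p = 0.0167; -1.73 and adjusted p = 0.051 without normal mouse 387, -1.83 and 0.105 with single-biopsy tumours only, -2.52 and 0.125 with the covariate of G2 and M genes), and it is named after its values were seen. There it was 0.885 to 5.01 CPM, in normal thymus 4.59 to 9.45, and in the p53-/- groups it reached 134 CPM in mouse 637 and 64.1 CPM in mouse 497. The other members Kif6, Kif9, Kif19a, Kif21b and Kif26b had no call, and all but Kif21b had group medians of 1.85 CPM or less.

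**Figure D4:**
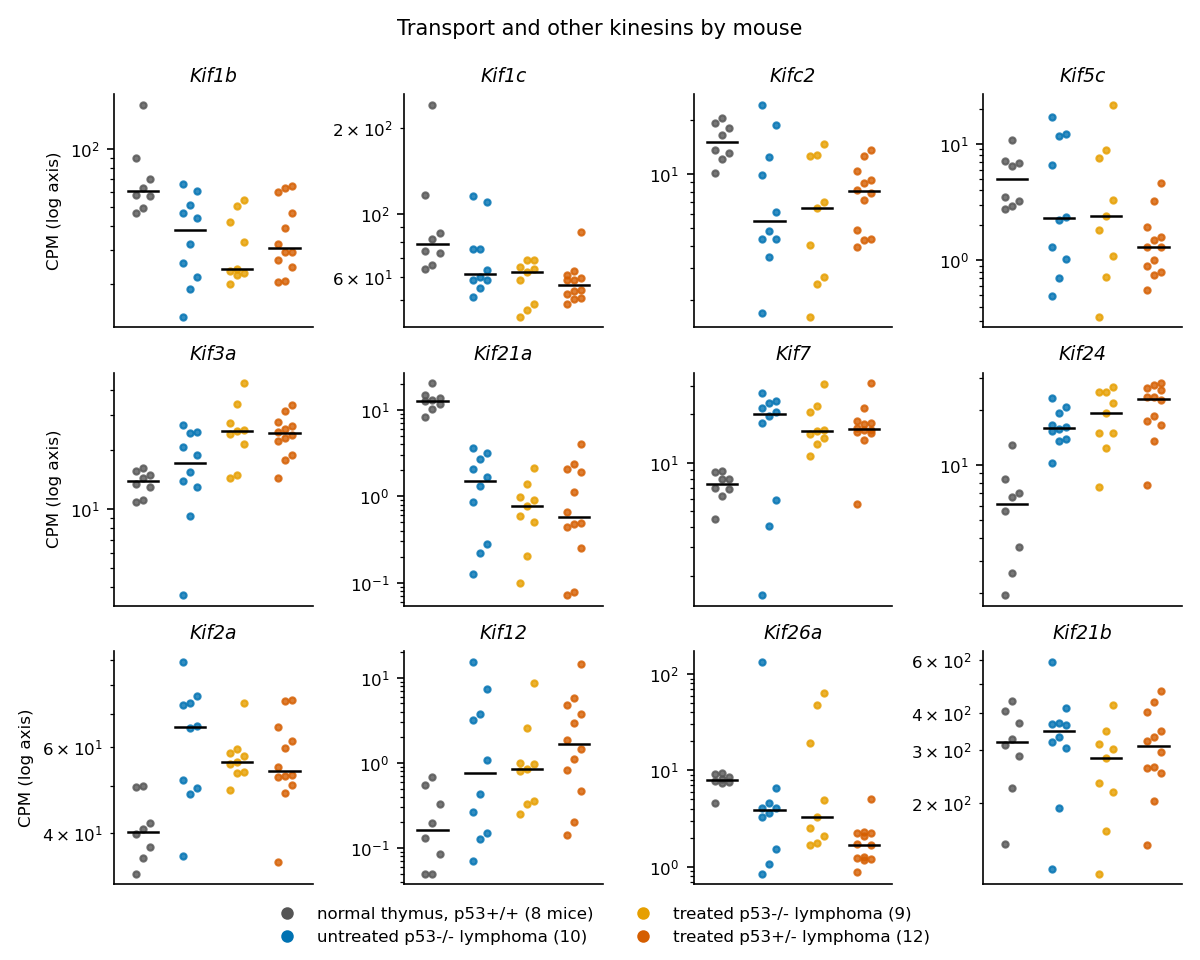
CPM (log axis) in each mouse of the transport and other kinesins described above, with 1 point per mouse and a line at the group median; values under 0.05 are drawn at 0.05. Every lymphoma lies below every normal thymus for Kif21a, most lie above for Kif7, Kif24 and Kif2a, and single p53-/- tumours stand high for Kif26a.

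Among the lymphomas, the questions were whether the transient Plk4 induction (treated against untreated p53-/-) or the p53 genotype (p53+/- against p53-/-, both treated) went with a difference in kinesins. No member was called in either comparison or in treated p53+/- against untreated p53-/- lymphomas (0 of 37 tested members in edgeR; Kif6 was below the filter), and 0% of the 16389 genes tested were called in each. At an unadjusted p under 0.05 there were 1918, 864 and 1039 genes and 5, 4 and 6 members. DESeq2 called 75, 12 and 3 genes and limma voom 39, 1 and 1, none of them a kinesin. The mitotic mean was 6.04 to 6.80 log2 CPM in untreated p53-/-, 5.96 to 7.03 in treated p53-/- and 6.15 to 7.01 in treated p53+/- lymphomas, so the groups overlapped over nearly all of their range. The 5 members at an unadjusted p under 0.05 in treated against untreated p53-/- lymphomas were Kif16b at -0.51 ± 0.18, Kif3a at 0.64 ± 0.27, Kif2c at 0.47 ± 0.20, Kif19a at -1.66 ± 0.73 and Kifc3 at 1.40 ± 0.69 (edgeR adjusted p = 0.293 to 0.425, none called).

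Kif4 was the mitotic member that differed most between lymphoma groups, at 0.68 ± 0.20 in treated p53+/- against untreated p53-/- lymphomas (edgeR adjusted p = 0.776) and 0.53 ± 0.18 against treated p53-/- lymphomas (0.934). Without the sex covariate the former was 0.83 ± 0.18 and called (edgeR adjusted p = 0.048), the only kinesin call among lymphomas under any alternative. That fit called 21 of all 16389 genes, where the fit with the covariate called 0. Kif4 is X-linked, and the groups differ in sex. By sex-linked expression, the 9 male untreated lymphomas had a median of 77 CPM (46.6 to 99.9) and the 1 female 107, the 6 male and 3 female treated p53-/- lymphomas had medians of 88.9 and 91.9, and the 2 male and 10 female p53+/- lymphomas 110 and 130. Because sex and group overlap this much, their parts in the Kif4 difference were not told apart beyond the fit with the covariate.

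In 13 tumours 4 or 5 biopsies were sequenced, which allows the spread within a tumour to be set beside that between tumours. Over the 12 mitotic members the median SD among biopsies was 0.19 log2 units, and the median SD of tumour means was 0.42. The transport kinesins had 0.31 and 0.87, and the other kinesins 0.43 and 1.04. The SD between tumours exceeded the median SD within them for all mitotic and transport members and for 10 of 11 others. The exception was Kif21a (1.40 within and 1.22 between), whose median was 0.576 to 1.51 CPM in the lymphoma groups. The 13 tumours come from all 3 lymphoma groups. The share over all genes was not computed, so these counts show no trait particular to kinesins. The mitotic member with the most spread was Kif20b, with 0.29 within and 1.64 between tumours, and the highest within-tumour SD of any mitotic kinesin, 2.23 in mouse 894. The SD between tumours rests largely on that mouse, at 2.59 CPM, where the other multi-biopsy tumours lay at 43.9 to 88.5 CPM. The biopsies of that tumour had Kif20b at -2.22, -0.70, -0.08 and 3.07 log2 CPM. Kif7, with 0.21 within and 1.22 between, differed between tumours 5.69 times as much as within them, the largest such ratio.

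**Figure D5:**
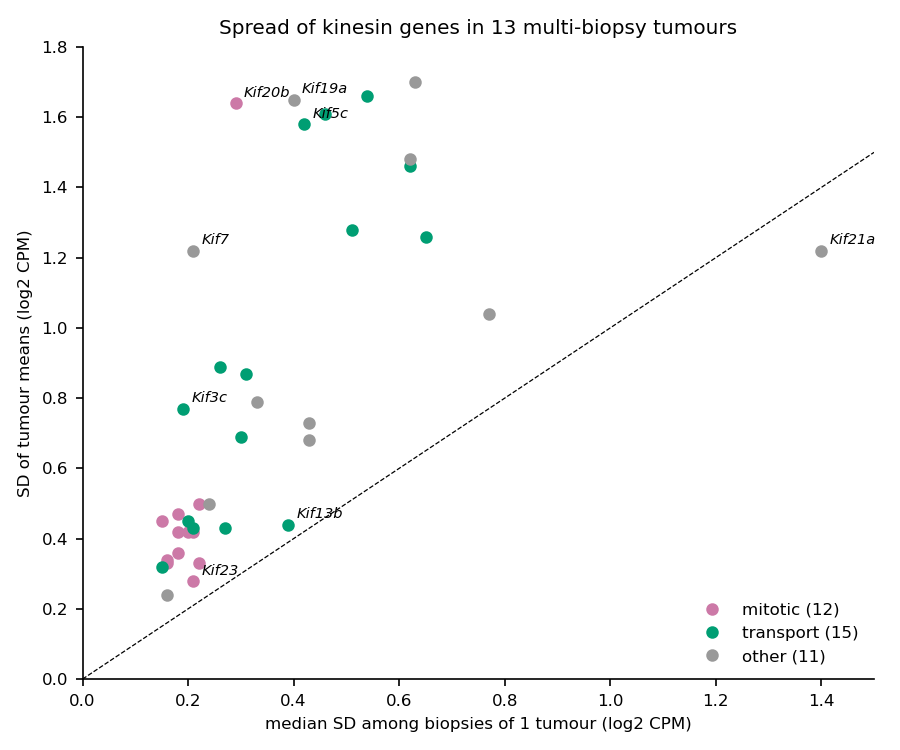
For each kinesin, the SD of tumour means against the median SD among biopsies of the same tumour, over 13 tumours with 4 or 5 biopsies (log2 CPM); the dashed line marks equality. Mitotic kinesins cluster at low values of both, apart from Kif20b (0.29 and 1.64), and Kif21a (1.40 and 1.22) is the only member below the line.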

How the data were processed

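RNA was sequenced from 81 biopsies of 40 mice. Gene-level estimated counts are what the authors deposited, in 1 table (expected counts); CASAVA 1.8, fastp, STAR 2.7.2b, RSEM 1.1.17 and build mm10 are named in the submitters' processing notes, with no role given. Of its cells, 14.25% are not whole, and no 2 columns are identical. Counts were rounded and summed per mouse; the labels do not say how tumours were sampled beyond the biopsy number, and p-values measure the spread between these mice. Coordinates and exon lengths came from GENCODE M21 (GRCm38), which matched 99.63% of gene IDs.

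Differential expression used edgeR 4.0.16 (R 4.3.3; TMM, filterByExpr, robust quasi-likelihood, labelled sex as covariate), called at a Benjamini-Hochberg adjusted p under 0.05 over all genes; the SE is the log2 fold change over the square root of the F statistic. Normal thymus and the 3 lymphoma groups shared a fit (17843 genes), and the lymphomas alone a further fit (16389 genes). CPM uses TMM factors, and log2 CPM a prior count of 2. DESeq2 1.42.0 and limma 3.58.1 (voom on biopsies) were alternatives, with other scalings, filters, sex terms and sample sets. Promoter windows came from RefSeq, build GRCm38.p6.

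The members and all gene lists were chosen with earlier results of these data known. Values were given for all mitotic members and for others called in the same direction in all 3 comparisons with normal thymus. From the spindle partner, cargo partner, G2 and M and replication lists, counts, the median and the 2 genes with the highest mean level were given. Lists of cell type markers were given by level, and only some of them with counts and medians. The markers were T lineage, B lineage, fat, thymic epithelium, endothelium, fibroblast, myeloid and neuron. Tested on counts simulated for untreated p53-/- lymphoma against normal thymus over 17533 genes, edgeR called 95 of the 100 genes altered 4-fold, 21 of the 100 altered 2-fold and 6 unaltered genes.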

Additional observations from a re-analysis of the deposited data

Results flagged for a closer look

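Among 114 sets of 1 member in 1 group of 8 to 10 mice, 10 held a mouse that stood apart from the rest by Dixon's criterion, which chance meets in about 1 of 20 sets. Values are log2 CPM. Treated p53-/- mouse 663 was low for 3 mitotic kinesins: Kif11 at 7.01 (the others 7.85 to 8.54), Kif15 at 5.63 (6.53 to 7.22) and Kif20b at 4.96 (5.90 to 6.52). Treated p53-/- mouse 869 was high for Kif2a at 6.20 (5.61 to 5.89). Normal thymus 387 was high for Kif1c at 7.92 (6.00 to 6.87) and for Kifc3, a minus-end motor of epithelial cells, at 5.07 (2.51 to 3.42). Normal thymus 624, the shallowest normal library, was low for Kif13b at 2.72 (3.78 to 4.29), and normal thymus 787 for Kif26a at 2.22 (2.90 to 3.25). Untreated p53-/- mouse 637 was high for Kif26a at 7.07 (-0.13 to 2.72), and mouse 899 of the same group for Kifc3 at 4.94 (0.84 to 2.98).

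The single p53+/- normal thymus, mouse 819, which entered no main comparison, lay above every p53+/+ normal thymus for 5 members: Kif3b at 5.91 (p53+/+ range 5.11 to 5.81), Kif3c at 5.34 (4.23 to 5.11), Kif13b at 4.60 (2.72 to 4.29), Kif21b at 8.84 (7.19 to 8.77) and Kif26a at 3.31 (2.22 to 3.25). Of the 17183 genes that meet the CPM rule of the members, 8.24% were above every p53+/+ normal thymus in this mouse and 8.38% below, beside 13.2% (5) and 2.63% (1, Kif1c) of the 38 members. This group has no replicate.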

How the results depend on the processing

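Of the 59 member calls against normal thymus, 1261 of 1356 values under the alternatives kept direction and call, 72 kept direction only and 23 took the opposite sign, all 23 with the mean of 15 G2 and M genes as a covariate. No paired analysis was possible because each mouse belongs to 1 group only. With that covariate 0 mitotic kinesins were called higher in each comparison, and 0 transport kinesins were called higher or lower. Calls over all genes also went down, to 3122, 3142 and 3124, and the SE of the called transport kinesins grew. In the treated p53-/- and p53+/- lymphomas Kif3a was at 0.78 ± 0.37 and 0.70 ± 0.36 (0.81 ± 0.25 and 0.73 ± 0.24 without the covariate). Kifc2 was at -1.20 ± 0.64 and -1.08 ± 0.59 (-1.21 ± 0.44 and -1.09 ± 0.41 without it). Kif1b was at -0.73 ± 0.42, -0.98 ± 0.46 and -0.79 ± 0.44 in the 3 groups (-1.01 ± 0.32, -1.33 ± 0.31 and -1.13 ± 0.29 without it). Kif1c moved further, to -0.35 ± 0.28 and -0.41 ± 0.28 in the treated groups (-0.88 ± 0.21 and -0.95 ± 0.19 without it), and Kif5c was at -1.41 ± 0.89 in the p53+/- lymphomas (-1.86 ± 0.61 without it). The 59 calls include 3 of Kif12, a member only through the lymphomas. The log2 fold changes of opposite sign were Kif2c -0.10, Kif11 -0.36, Kif14 -0.21, Kif15 -0.23, Kif18a -0.04 and Kif23 -0.04 in untreated p53-/- lymphomas. In treated p53-/- lymphomas they were Kif4 -0.01, Kif11 -0.44, Kif14 -0.21, Kif15 -0.30, Kif18a -0.15, Kif18b -0.04, Kif20b -0.02, Kif22 -0.36, Kif23 -0.08 and Kifc1 -0.09. In treated p53+/- lymphomas they were Kif11 -0.43, Kif14 -0.35, Kif15 -0.26, Kif18a -0.18, Kif18b -0.00381, Kif22 -0.24 and Kif23 -0.09.

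The count of transport kinesins lower in untreated p53-/- lymphomas (1) was 2 with RLE size factors, no scaling factors, DESeq2 or no sex covariate, 3 with limma voom on single biopsies and 0 with only the 2 groups compared; leaving out each normal thymus gave 0 (mouse 387) to 2 (mice 787, 978, 980 and 624), and 0 to 1 for those higher. The count of transport kinesins higher in untreated lymphomas was 1 without treated p53-/- mouse 857, whose biopsies include the shallowest library, or without normal mouse 387. In treated p53-/- lymphomas the transport kinesins higher (1) were 2 with no sex covariate, without the 3 sex-discordant mice, with single-biopsy tumours only, with normal mouse 819 or without mouse 857. With a log2 fold change of at least 1 also asked for, 0 were higher in either treated group. Transport kinesins lower in p53+/- lymphomas (4) were 7 with limma voom. Among lymphomas, 1 kinesin (Kif4) was called without the sex covariate in treated p53+/- against untreated p53-/- lymphomas and 0 otherwise. The same fit called 21 of all 16389 genes. Leaving out tumour 881, high in B lineage markers, changed no call of a member. Without scaling factors 46.7% of all calls in untreated lymphomas were higher (56.9% with TMM), and the median of all genes moved from 0.08 to -0.05. For these changes the cause was not tested. Depth limits members under 1 CPM, with the shallowest biopsy at 1.03 M counts.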

Other observations

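Genes on 1 side of Kif20b were low in the same tumour of mouse 894. On the plain CPM scale (no TMM factors), Kif20b was 2.19 CPM there and 28.5 to 92.3 in the other 30 lymphomas. Of the 5 nearest protein-coding genes before it on chromosome 19 with a lymphoma median of at least 5 CPM, Lipa (21.7 CPM against 43.6 to 156), Fas (1.05 against 2.19 to 25.7) and Ifit2 (2.57 against 12.5 to 56.7) were below every other lymphoma, and Ifit1 (1.65) and Ifit3 (2.06) were near the low end. Lipa makes the lysosomal acid lipase, Fas a death receptor of lymphocytes, and the Ifit genes are interferon-induced. Of the 5 such genes after it, none was below every other lymphoma, with Rpp30 at 23.6 CPM beside a median of 23.4 and Tnks2 at 203 beside 220. This was looked for after the Kif20b value was seen.

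Markers of other cell types are given by their summed levels. Summed over the 5 markers, endothelium was 133 to 548 CPM in normal thymus and 28.7 to 298 in lymphomas, fibroblast 159 to 2580 and 78.9 to 2490, and myeloid 270 to 1810 and 315 to 1440. The 6 neuron markers summed to 2.86 to 25.1 CPM in normal thymus and 3.42 to 80.5 in lymphomas. Of the 4 tested, 2 were called higher and 1 lower in each comparison. Among all genes 23.2%, 25.4% and 25.6% were called higher and 17.5%, 26.6% and 25.3% lower. Group medians, in normal thymus and the 3 lymphoma groups, were 7.61, 0.158, 0.116 and 0.0512 CPM for Nefm, 4.89, 1.79, 0.761 and 0.653 for Syt1, 0.361, 0.1, 0.0193 and 0.0506 for Nefl, 4.69, 18.3, 16.5 and 11.6 for Tubb3, 0.159, 0.776, 4.53 and 0.811 for Rbfox3 and 0.0481, 0.0346, 0 and 0.0405 for Snap25. Their part in the values of neuronal kinesins such as Kif1a and Kif5c was not tested.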
